A study of Mus musculus with 2 samples.

Results

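The genes described here are the amyloid precursor protein family and genes of its processing, a list of 9 symbols chosen by name from the 31053 genes in the files: *App*, *Aplp1*, *Aplp2*, *Adam10*, *Bace1*, *Psen2*, *Ncstn*, *Aph1a* and *Itm2b*. The study addressed the effects of OLE (N-oleoyl-leucine, C18:1-Leu), an N-acyl amino acid, on entorhinal cortex of a mouse model of amyloid deposition, by single-nuclei RNA sequencing. Each of the 2 libraries held nuclei pooled from 5 male APP/PS1 mice aged 18 months. The OLE library came from mice that drank alkaline water with OLE at 25 mg/kg/day from 15 months of age, and the vehicle library from mice given DMSO in the same way. Both groups carried the same transgenes, and no wild-type library was analysed here. With 1 library per group there is no replicate, so no test between OLE and vehicle was possible, and every 95% interval covers counting error only. Differences between the 2 libraries in dissection, nuclei isolation or mice cannot be told apart from the treatment.

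APP is a membrane protein that is cut by competing proteases. Alpha-secretase, in neurons mainly ADAM10, cuts within the amyloid beta stretch, whereas beta-secretase (BACE1) and then gamma-secretase, a complex of a presenilin, nicastrin, APH1 and PEN2, release amyloid beta. APLP1 and APLP2 are relatives of APP that are cut by the same enzymes but lack the amyloid beta stretch, and ITM2B (BRI2) is a membrane protein that binds APP and restrains its cleavage. APP/PS1 mice carry a chimeric mouse and human APP transgene with the Swedish mutations together with a further transgene, both driven by prion protein promoter elements. Reads were aligned to the mouse genome, so transcripts of the chimeric transgene and of the mouse gene cannot be told apart in the values for *App*. The prion gene *Prnp* cannot serve as a check, because it had 30 UMIs in all and 99.9% of it overlaps the readthrough gene *Prn* on the same strand.

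The members lie on 6 chromosomes of GRCm38 and differ in length, from 4.32 kb for *Aph1a* to 224 kb for *App*, which matters because intronic reads were counted. *App* lies at chr16:84949685-85173766, *Aplp1* at chr7:30434982-30445535, *Aplp2* at chr9:31149557-31211815 and *Itm2b* at chr14:73362226-73385289, all on the minus strand. These 4 genes were higher in OLE in every glutamatergic-like cluster, though not always by more than counting error. The 150 bases upstream of each are given so that their promoters can be compared. Each window ends before the RefSeq start or, for *App*, before the GENCODE start, which lies 59 bases further upstream. The sequences are those of RefSeq on GRCm38.p6, written 5′ to 3′ along the gene, at chr16:85173767-85173916, chr7:30445583-30445732, chr9:31211849-31211998 and chr14:73385290-73385439. Capitals mark the GC box GGGCGG read on either strand (CCGCCC on the other).
App: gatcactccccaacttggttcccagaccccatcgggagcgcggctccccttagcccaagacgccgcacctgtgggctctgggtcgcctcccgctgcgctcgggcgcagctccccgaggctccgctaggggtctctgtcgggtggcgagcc
Aplp1: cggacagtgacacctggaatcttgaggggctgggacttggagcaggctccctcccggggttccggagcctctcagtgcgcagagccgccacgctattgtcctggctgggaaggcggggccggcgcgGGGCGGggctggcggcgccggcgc
Aplp2: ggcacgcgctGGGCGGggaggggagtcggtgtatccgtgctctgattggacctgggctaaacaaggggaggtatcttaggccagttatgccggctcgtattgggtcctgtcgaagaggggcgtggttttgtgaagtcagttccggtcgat
Itm2b: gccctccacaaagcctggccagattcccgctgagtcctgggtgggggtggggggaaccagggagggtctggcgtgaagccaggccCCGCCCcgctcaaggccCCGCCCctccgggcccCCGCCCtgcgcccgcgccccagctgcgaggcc
The window of *Itm2b* held 3 GC boxes, those of *Aplp1* and *Aplp2* held 1 each and that of *App* held 0. To set the members against other genes, the 150 bases before the RefSeq start were used for all. Such windows were found for 8 of the 9 members, not for *Bace1*, and a GC box was present in 7 of these 8, against 28.6% of 32851 windows. In *App* that box lay within the 59 bases that GENCODE counts to the gene. The CCAAT box, read on either strand, was found in *Aplp2*, *Adam10* and *Aph1a*, 3 of the 8, and in 24.5% of all windows. The E-box CACGTG was found in *Adam10* and *Psen2* and in 4.30% of all windows, and no member had TATAAA, which 7.57% of windows held. These are matches of letters, not tests of binding. The windows of all genes were not matched to the members in level or GC content.

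The vehicle library held 6745 nuclei with 70845739 UMIs (unique molecular identifiers, each counting 1 captured transcript), and the OLE library 6173 nuclei with 69485537 UMIs. After 331 and 289 nuclei with the highest doublet scores were left out, 12298 nuclei formed 24 clusters. Clusters were named from marker genes. Glutamatergic-like nuclei numbered 1484 in vehicle and 1336 in OLE, GABAergic-like nuclei 324 and 350, oligodendrocyte-like nuclei 585 and 528, oligodendrocyte precursor-like nuclei 101 and 84, and microglia-like nuclei 338 and 270. The astrocyte-like class was small, with 121 and 136. The libraries stood apart in the 6404 nuclei that stayed unnamed. Cluster 0 held 2227 vehicle and 305 OLE nuclei, and cluster 1 held 246 and 1722. Both were poor in UMIs and rich in neuronal transcripts, and the members in them are described separately. The libraries shared 14 cell barcodes.

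Levels are UMIs of a gene per 1000000 UMIs of the same class and library. *App* had the same order of levels over the 6 classes in both libraries. It was highest in oligodendrocyte-like nuclei, at 1515 in vehicle and 1734 in OLE, followed by GABAergic-like nuclei at 691 and 784 and glutamatergic-like nuclei at 574 and 678. Microglia-like nuclei had 520 in vehicle and 461 in OLE, and oligodendrocyte precursor-like nuclei 379 and 402. The lowest levels were those of astrocyte-like nuclei, 228 and 186. The highest class was thus 6.66 times the lowest in vehicle and 9.30 times in OLE. The intervals of neighbouring classes overlapped only between glutamatergic-like and microglia-like nuclei in vehicle, and between microglia-like and oligodendrocyte precursor-like nuclei in OLE.

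The question of the treatment is whether these levels differed between OLE and vehicle. The log2 ratio of OLE over vehicle for *App* was 0.24 in glutamatergic-like nuclei (95% interval 0.21 to 0.27; 19887 and 19634 UMIs in vehicle and OLE), 0.18 in GABAergic-like nuclei (0.12 to 0.24) and 0.19 in oligodendrocyte-like nuclei (0.12 to 0.27). In these 3 classes the higher level in OLE exceeded counting error. In the other glia it did not. The ratio was 0.08 in oligodendrocyte precursor-like nuclei (-0.16 to 0.33), -0.18 in microglia-like nuclei (-0.38 to 0.03) and -0.29 in astrocyte-like nuclei (-0.60 to 0.03). The value for astrocyte-like nuclei turned to 0.30 when no nucleus was left out as a doublet and the nuclei were clustered anew. No class reached 1.5-fold for *App*, the size used here to call a difference among genes with at least 100 UMIs in the class.

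**Figure D1:**
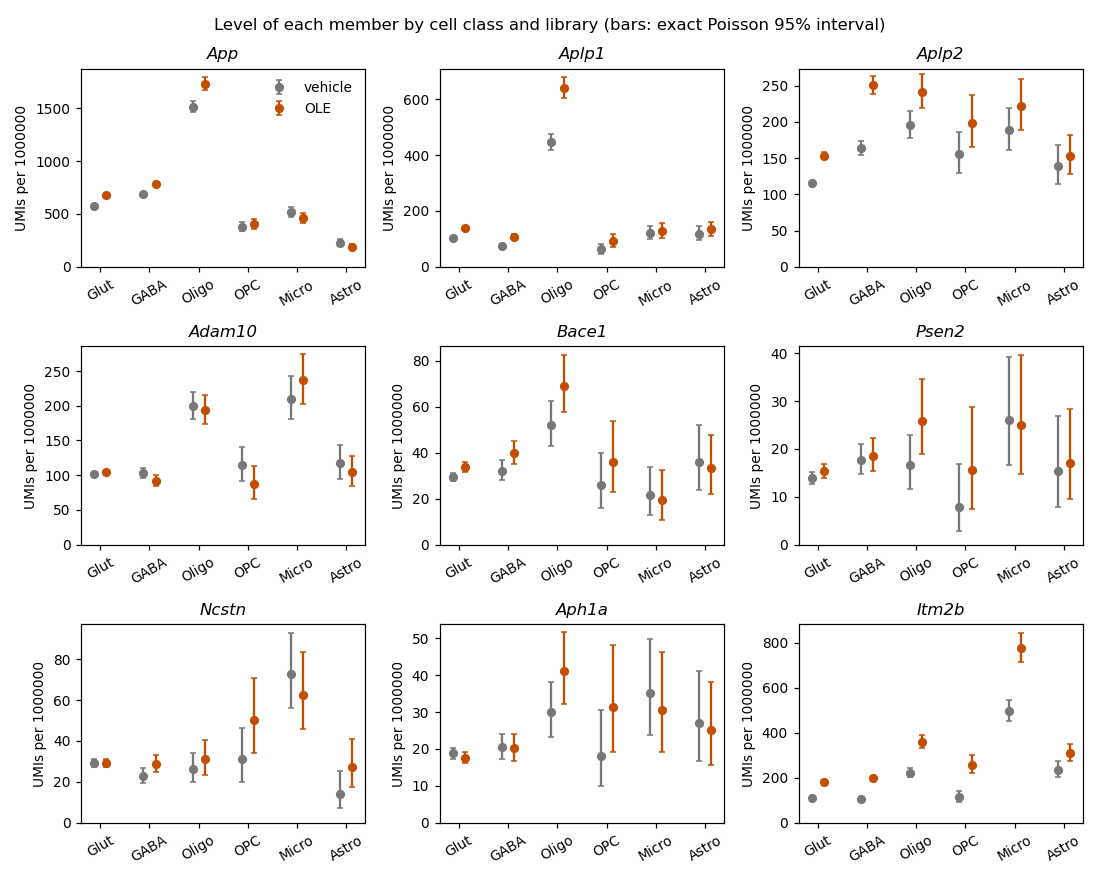
Level of each member (vertical axis, UMIs per 1000000 UMIs of the class) in 6 cell classes (Glut, glutamatergic-like; GABA, GABAergic-like; Oligo, oligodendrocyte-like; OPC, oligodendrocyte precursor-like; Micro, microglia-like; Astro, astrocyte-like) in the vehicle (grey) and OLE (orange) library, with exact Poisson 95% intervals. *App*, *Aplp1* and *Bace1* peak in oligodendrocyte-like nuclei and *Adam10*, *Ncstn* and *Itm2b* in microglia-like nuclei in both libraries.

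*Aplp1* encodes the APP relative largely confined to the nervous system. Its highest level was also in oligodendrocyte-like nuclei, at 447 in vehicle and 640 in OLE, at least 3 times that of any other class. Glutamatergic-like nuclei had 103 and 138, and GABAergic-like nuclei 73.4 and 108. The OLE library was thus higher in all 3 classes, with log2 ratios of 0.52 (0.39 to 0.64), 0.43 (0.36 to 0.49) and 0.56 (0.39 to 0.73), each short of 1.5-fold. In microglia-like nuclei the levels were 122 and 127 and in astrocyte-like nuclei 118 and 135, and the intervals of both ratios included 0. With 48 and 58 UMIs, the ratio of 0.54 in oligodendrocyte precursor-like nuclei was not separated from 0 either (-0.035 to 1.12). It became 0.71, past 1.5-fold, when no nucleus was left out as a doublet.

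*Aplp2* encodes the more widely expressed relative, and its levels were the most even among the classes. The highest class exceeded the lowest by 1.70-fold in vehicle and 1.64-fold in OLE, and the highest class was not the same in both, oligodendrocyte-like nuclei leading in vehicle at 196 and GABAergic-like nuclei in OLE at 251. GABAergic-like nuclei held the larger difference, from 164 in vehicle to 251 in OLE (log2 ratio 0.62, 0.51 to 0.73), past 1.5-fold. It fell short of that size, at 0.57 when no nucleus was left out as a doublet and at 0.54 when ratios were centred on the median gene. Glutamatergic-like nuclei went from 115 to 153 (0.41, 0.35 to 0.47) and oligodendrocyte-like nuclei from 196 to 242 (0.30, 0.11 to 0.50). Outside the 6 classes, vascular leptomeningeal-like nuclei, of which there were 87 and 85, had 201 in vehicle and 355 in OLE. In precursor-, microglia- and astrocyte-like nuclei the ratios of *Aplp2* were 0.35, 0.23 and 0.14, with intervals that included 0. The ratio in precursor-like nuclei became 0.60, past 1.5-fold, when the profile of the low-UMI clusters 0 and 1 was subtracted.

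Among the secretases, *Adam10*, the alpha-secretase, had its highest level in microglia-like nuclei, at 210 in vehicle and 237 in OLE, with oligodendrocyte-like nuclei next at 200 and 194. The intervals of these 2 classes overlapped, and both were higher than those of the neurons. Glutamatergic-like nuclei had 101 in vehicle and 104 in OLE (log2 ratio 0.04, -0.03 to 0.11). GABAergic-like nuclei, at 103 and 92.0, gave -0.16 (-0.32 to -0.0041), and 4 of the 6 ratios of *Adam10* were below 0. The lowest was -0.38 in precursor-like nuclei (-0.89 to 0.12; 88 and 56 UMIs), and the ratios were -0.04 (-0.25 to 0.16) in oligodendrocyte-like, -0.17 (-0.60 to 0.27) in astrocyte-like and 0.17 (-0.14 to 0.48) in microglia-like nuclei. None of the 6 reached 1.5-fold, although microglia-like nuclei thinned to 1000 UMIs each gave 0.61, past it.

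*Bace1*, the beta-secretase, was highest in oligodendrocyte-like nuclei, at 52.1 in vehicle and 69.3 in OLE. Its levels in glutamatergic-like nuclei were 29.5 and 33.7 and in GABAergic-like nuclei 32.2 and 39.9. The log2 ratios were 0.41 (0.03 to 0.79), 0.19 (0.06 to 0.32) and 0.31 (0.04 to 0.57), so OLE was the higher library by somewhat more than counting error in each. In the other 3 classes *Bace1* had fewer than the required 100 UMIs over both libraries, and no ratio was read. Its overlap with *Rnf214* on the opposite strand covers 3.78% of the gene.

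The members of the gamma-secretase complex had few UMIs. *Psen2*, a presenilin, had 13.8 UMIs per 1000000 in vehicle and 15.4 in OLE in glutamatergic-like nuclei (log2 ratio 0.15, -0.03 to 0.34) and 17.7 and 18.6 in GABAergic-like nuclei (0.07, -0.30 to 0.45). In each of the glial classes it had fewer than 100 UMIs. *Ncstn*, which encodes nicastrin, the substrate-binding subunit, was highest in microglia-like nuclei, at 72.7 and 62.6, against 29.1 in glutamatergic-like nuclei in both libraries. The ratio of *Ncstn* was 0.0009 in glutamatergic-like nuclei (-0.13 to 0.13), 0.32 in GABAergic-like nuclei (0.01 to 0.64), 0.24 in oligodendrocyte-like nuclei (-0.32 to 0.80) and -0.22 in microglia-like nuclei (-0.80 to 0.36). *Aph1a*, a scaffold subunit, had 18.8 and 17.6 in glutamatergic-like nuclei (-0.10, -0.27 to 0.07) and 20.5 and 20.2 in GABAergic-like nuclei (-0.02, -0.38 to 0.33). In oligodendrocyte-like nuclei *Aph1a* had 29.95 and 41.1 (0.46, -0.04 to 0.96). That ratio reached 0.65, past 1.5-fold, under the alternative that raised it most. For these 3 genes only *Ncstn* in GABAergic-like nuclei had an interval that excluded 0.

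*Itm2b* differed most between the libraries. It was highest in microglia-like nuclei, at 497 in vehicle and 778 in OLE, followed in OLE by oligodendrocyte-like nuclei at 361 and astrocyte-like nuclei at 310, which had 223 and 237 in vehicle. Glutamatergic-like nuclei had 111 and 182, GABAergic-like nuclei 107 and 197, and precursor-like nuclei 113 and 257. In every class the OLE library was the higher one and the intervals of the levels did not overlap, although they nearly touched in astrocyte-like nuclei. The log2 ratios were 0.71 in glutamatergic-like nuclei (0.65 to 0.77), 0.88 in GABAergic-like nuclei (0.75 to 1.01), 0.69 in oligodendrocyte-like nuclei (0.52 to 0.87), 1.18 in precursor-like nuclei (0.80 to 1.58), 0.64 in microglia-like nuclei (0.46 to 0.83) and 0.39 in astrocyte-like nuclei (0.12 to 0.67). Vascular leptomeningeal-like nuclei had 323 and 647. All classes but the astrocyte-like were past 1.5-fold, although microglia-like nuclei thinned to 1000 UMIs each gave 0.53, short of it.

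Counted over the 9 members and 6 classes, 42 of 54 pairs had at least 100 UMIs, of which 33 had a ratio above 0. Of all genes with that many UMIs, 64.6% were above 0 in the glutamatergic-like class and 65.4% in the GABAergic-like one. Among the glia this share ran from 46.4% (astrocyte-like) to 53.0% (oligodendrocyte-like). It was 48.0% for the precursor-like class and 46.6% for the microglia-like one. Past 1.5-fold, 6 pairs were higher in OLE, 5 of *Itm2b* and 1 of *Aplp2*, and 0 were lower. In glutamatergic-like nuclei 1 of 9 members was higher, against 3.05% of 13330 genes, and in GABAergic-like nuclei 2 of 9, against 5.26% of 9632. In oligodendrocyte-like nuclei it was 1 of 8 (2.99% of all genes), in precursor-like nuclei 1 of 5 (2.71%), in microglia-like nuclei 1 of 6 (2.07%) and in astrocyte-like nuclei 0 of 5 (2.42%). Genes past 1.5-fold lower made up 0.225%, 0.332%, 0.806%, 2.13%, 1.31% and 2.03% in the same order. Over all 12298 retained nuclei 1 of 9 was past 1.5-fold higher, against 3.98% of 15995 genes, and 0 were past it lower, against 0.263%. That 1 was *Itm2b*, at 157 in vehicle and 254 in OLE (0.69, 0.65 to 0.72), and all 9 members had a ratio above 0, as did 69.0% of all genes. The median log2 ratio of the members was 0.19 in glutamatergic-like nuclei, where all genes had 0.06, and 0.31 in GABAergic-like nuclei, where all genes had 0.08. It was 0.36, 0.35, 0.12 and 0.14 in oligodendrocyte-, precursor-, microglia- and astrocyte-like nuclei, where the median of all genes lay between -0.02 and 0.02. The plot of ratios by class sets each member against that median.

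**Figure D2:**
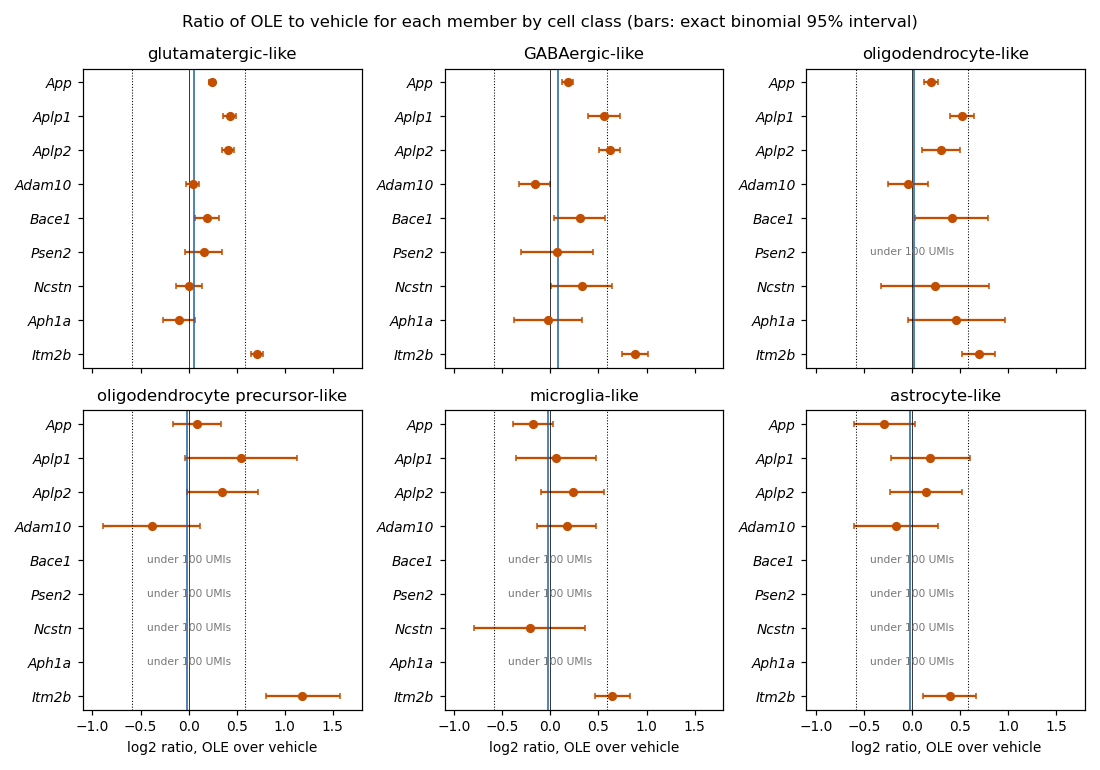
Log2 ratio of OLE over vehicle (horizontal axis) of each member in each cell class, with exact binomial 95% intervals for counting error; the blue line is the median of all genes with at least 100 UMIs in the class, the dotted lines mark 1.5-fold, and members under 100 UMIs are labelled. *Itm2b* lies past the upper dotted line in all classes but the astrocyte-like.

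The difference was examined within the 10 glutamatergic-like clusters, each of which held nuclei of both libraries. *Itm2b* was higher in OLE in 10 of 10, with log2 ratios from 0.55 to 0.93 and a median of 0.70. *App* (0.12 to 0.31), *Aplp1* (0.07 to 0.71) and *Aplp2* (0.24 to 0.50) were likewise above 0 in 10 of 10. In these clusters from 51.2% to 61.3% of all genes with at least 100 UMIs were above 0. The counting interval included 0 for *Aplp1* in clusters 17 and 22 and for *Aplp2* in cluster 22. The medians over clusters, 0.26 for *App*, 0.38 for *Aplp1* and 0.39 for *Aplp2*, were near the class-wide ratios. The ratios of *Aplp1* in single clusters spread widely around its class-wide ratio. The secretase genes were mixed: *Psen2* was above 0 in 8 clusters, *Bace1* in 7, *Adam10* and *Ncstn* in 5 each and *Aph1a* in 2. The clusters of 1 library share its mice and its preparation and are not replicates.

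**Figure D3:**
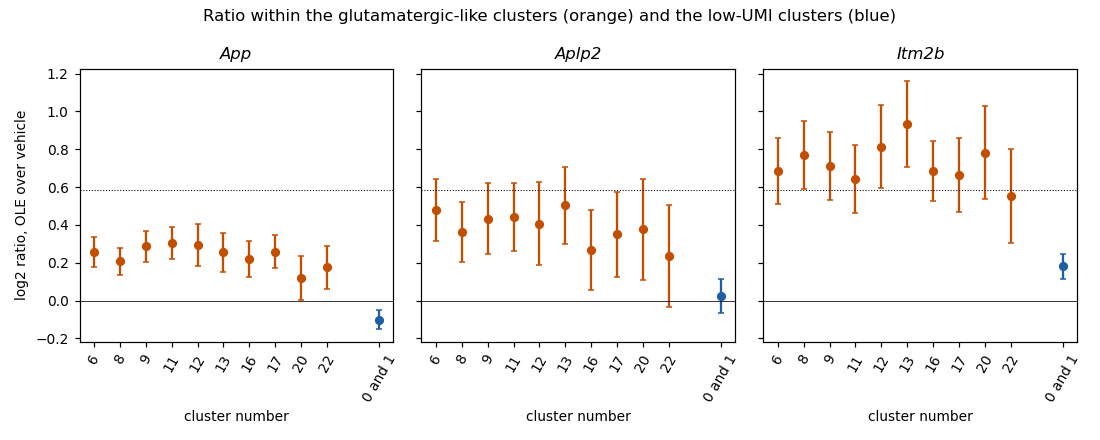
Log2 ratio of OLE over vehicle (vertical axis) of *App*, *Aplp2* and *Itm2b* in each glutamatergic-like cluster (orange, by cluster number) and in the low-UMI clusters 0 and 1 as 1 set (blue), with exact binomial 95% intervals; the dotted line marks 1.5-fold. All orange points lie above 0, and the blue points lie below the orange ones.

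The pattern was not the same in the low-UMI clusters 0 and 1, which together held 2473 vehicle and 2027 OLE nuclei, with median UMIs of 2364 and 4739. Their 16 neuronal genes reached 91.2% and 89.3% of the level in glutamatergic-like nuclei. *Itm2b* was at 446 there in vehicle and 506 in OLE, well above its level in named neurons, with a log2 ratio of 0.18 (0.12 to 0.25). Taken singly, cluster 0 gave -0.01 (-0.19 to 0.17) and cluster 1 gave 0.25 (0.12 to 0.39). *App* was at 840 and 784, a ratio of -0.10 (-0.15 to -0.05), opposite in sign to that of the named neurons. For *App*, cluster 0 alone gave -0.15 (-0.29 to -0.01) and cluster 1 alone -0.06 (-0.16 to 0.03). None of the 9 members was past 1.5-fold, but the share of all genes past it is not given for these clusters. The median of the members was 0.02, as was that of all genes. Because clusters 0 and 1 divided by library, their nuclei in OLE and vehicle cannot be taken as matched.

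Transcripts of neurons were present in the glial classes. The 16 neuronal genes reached from 13.9% to 27.2% of their glutamatergic-like level in the 4 glial classes. Scaled by these genes, the profile of the low-UMI clusters would carry 47.1% of the *App* UMIs of microglia-like nuclei in vehicle and 51.8% in OLE, and 62.4% and 65.6% of those of astrocyte-like nuclei. Of the *App* UMIs of oligodendrocyte-like nuclei it would carry only 12.9% and 10.2%. For *Aplp1* it would carry 73.1% and 78.8% in microglia-like nuclei and 145% and 107% in precursor-like nuclei. *Itm2b* in microglia-like nuclei was carried to 26.2% and 19.8%, but in precursor-like nuclei to 117% and 58.6%. These shares depend on the profile. With that of glutamatergic-like nuclei, in which both genes were lower, neurons would carry 44.5% and 40.4% of *Aplp1* and 26.6% and 18.8% of *Itm2b* in precursor-like nuclei, and 29.3% and 40.04% of *App* in microglia-like nuclei. The ratio of *Itm2b* in precursor-like nuclei was 1.31 after subtraction of the glutamatergic-like profile, whereas subtraction of the low-UMI profile left no vehicle level to compare. With the low-UMI profile subtracted, the ratio of *Itm2b* was 0.79 in microglia-like, 1.03 in oligodendrocyte-like and 0.50 in astrocyte-like nuclei. That of *App* was -0.28 in microglia-like, 0.23 in oligodendrocyte-like and -0.45 in astrocyte-like nuclei. In precursor-like nuclei it was 0.38, outside the counting interval of the value reported. With the profile of glutamatergic-like nuclei subtracted instead, *App* reached -0.63 in astrocyte-like nuclei, past 1.5-fold lower, and -0.03 in precursor-like nuclei.

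Microglia-like nuclei were divided further into homeostatic-like nuclei (167 in vehicle and 138 in OLE) and disease-associated-like nuclei (160 and 116), the state that microglia take near plaques. The class-wide values also include 5 vehicle and 8 OLE nuclei with macrophage markers and 6 and 8 unnamed nuclei. *Itm2b* had 574 in vehicle and 797 in OLE in the homeostatic-like nuclei (0.47, 0.22 to 0.73) and 423 and 805 in the disease-associated-like nuclei (0.93, 0.64 to 1.22). The intervals of the levels of the 2 subsets did not overlap in vehicle and overlapped in OLE. *App* was lower in OLE in homeostatic-like nuclei, at 574 and 410 (-0.48, -0.79 to -0.18), but not in disease-associated-like nuclei, at 457 and 447 (-0.03, -0.36 to 0.30). *Adam10* had 255 and 296 in the former and 162 and 196 in the latter, with intervals of the ratio that included 0. The difference of the ratios between the subsets was not tested.

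Ratios across all genes went with gene length. In glutamatergic-like nuclei the median log2 ratio was 0.21 for genes under 10 kb, 0.09 from 10 to 30 kb, 0.02 from 30 to 100 kb, -0.01 from 100 to 300 kb and -0.05 above. Each member was therefore set beside genes of its length. *Itm2b*, at 23.1 kb, was higher than 99.3% of 4108 genes, *Aplp2*, at 62.3 kb, than 96.3% of 4125, *Aplp1*, at 10.6 kb, than 92.9% of 4108, and *App* than 90.1% of 1847. *Aph1a*, the shortest, lay above 9.19% of 2655. In microglia-like nuclei *Itm2b* was above 97.4% of 548 genes and *App* above 25.8% of 951. The ratio of *Itm2b* less the median of its length class was 0.62 in glutamatergic-like nuclei, 0.73 in the GABAergic-like class and 0.64 among microglia-like nuclei, past 1.5-fold on that scale in each. In astrocyte-like nuclei it was 0.30.

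**Figure D4:**
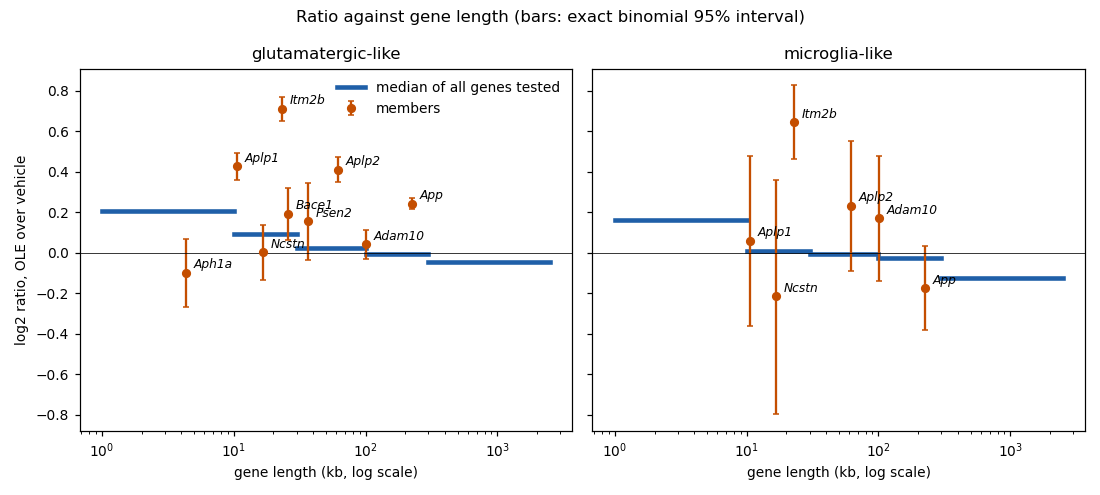
Log2 ratio of OLE over vehicle (vertical axis) of the members (orange, exact binomial 95% intervals) against gene length in kb (log scale), with the median of all genes with at least 100 UMIs in each of 5 length classes (blue; the outer classes are open-ended), in glutamatergic-like and microglia-like nuclei. The medians fall with length, and *Itm2b* lies above its class in both panels.

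Other genes of the pathway were counted from lists. Of 9 further secretase genes, 0 of 9 in glutamatergic-like nuclei and 0 of 4 in microglia-like nuclei were past 1.5-fold. Of all genes, 3.05% were past it higher and 0.225% lower in glutamatergic-like nuclei, and 2.07% and 1.31% in microglia-like nuclei. Such shares would leave lists this short with few or no genes called. In glutamatergic-like nuclei the highest ratio was that of *Psenen*, the PEN2 subunit (0.46, 0.24 to 0.69), with levels of 8.74 in vehicle and 12.1 in OLE. The lowest ratio was that of *Gsap* (-0.32, -0.66 to 0.01). In microglia-like nuclei the highest ratio was that of *Adam17*, a further alpha-secretase (0.26, -0.11 to 0.63), and the lowest that of *Gsap* (-0.35, -0.64 to -0.07). In GABAergic-like nuclei 1 of 8, *Aph1b*, was past 1.5-fold higher, where 5.26% of all genes were. *Aph1b* has a close copy, *Aph1c*, with which reads may be shared.

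The list of *Itm2b* relatives and of the proteases that process them held the other member of the family past 1.5-fold. *Itm2c*, a relative that also binds APP, had 70.6 in vehicle and 111 in OLE in glutamatergic-like nuclei (0.66, 0.58 to 0.73) and 51.1 and 81.6 in GABAergic-like nuclei (0.68, 0.48 to 0.87), where *Sppl2b* was past 1.5-fold too (0.72, 0.31 to 1.14). *Sppl2a*, a protease that cuts ITM2B within the membrane, had the lowest ratio of the list in glutamatergic-like nuclei, with a level of 71.0 in both libraries. In microglia-like nuclei *Itm2c* had the highest ratio (0.20, -0.13 to 0.53) and *Furin*, which trims ITM2B, the lowest (-0.29, -0.88 to 0.28). In oligodendrocyte-like nuclei *Itm2c* had -0.07 (-0.35 to 0.20). The higher *Itm2b* of oligodendrocyte-like nuclei thus came without a higher *Itm2c*.

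The medians of the adaptor and sorting lists in glutamatergic-like nuclei were both 0.01, and in microglia-like nuclei -0.15 and -0.11. Of 8 adaptor genes, which bind the APP tail, 0 were past 1.5-fold in glutamatergic-like nuclei, from *Dab1* (-0.12) to *Apba3* (0.26), and 0 of 5 in microglia-like nuclei, from *Dab1* (-0.28) to *Apba1* (0.05). Of 15 sorting genes, 0 were past it in glutamatergic-like nuclei, from *Sorcs1* (-0.19) to *Rtn4*, which restrains BACE1 (0.30), and 0 of 12 in microglia-like nuclei, from *Sorcs1* (-0.41) to *Gga3* (0.52). Of all genes, 3.05% were past it higher in glutamatergic-like nuclei and 2.07% in microglia-like nuclei. In GABAergic-like nuclei 1 of 8 adaptor genes, *Apba3* (0.67), and 0 of 15 sorting genes were past 1.5-fold higher, where 5.26% of all genes were. In precursor-like nuclei 1 of 5 adaptor genes, *Apbb2* (-0.59), and 1 of 8 sorting genes, *Picalm* (-0.70), were past it lower, where 2.13% of all genes were. Among genes of amyloid degradation, *Ide*, the insulin-degrading enzyme, had the lowest ratio in glutamatergic-like nuclei (-0.33, -0.40 to -0.25), with levels of 106 in vehicle and 84.3 in OLE. *Ece1* had the highest ratio (0.13, 0.03 to 0.24). In astrocyte-like nuclei *Ide* had 138 and 90.4 and was past 1.5-fold lower (-0.61, -1.04 to -0.17), where 2.03% of all genes were.

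Lists of genes outside the pathway were counted for comparison, in glutamatergic-like nuclei against 3.05% of all genes past 1.5-fold higher and an all-gene median of 0.06. Of 36 housekeeping genes of the secretory pathway, through which all these membrane proteins pass, 36 had a ratio above 0 in glutamatergic-like nuclei, 8 were past 1.5-fold and the median was 0.40. Of 39 cytosolic housekeeping genes, 37 were above 0, 4 were past 1.5-fold and the median was 0.32. Among the genes of these lists are *Calr*, *Hspa5* and *Hsp90ab1*, which the study reported as up-regulated mainly in neurons of treated mice. The lists are therefore not a neutral baseline. The medians of both lists exceeded that of the members, 0.19, and did so in GABAergic-like nuclei as well, at 0.46 and 0.42 against 0.31. In microglia-like nuclei they were 0.30 and 0.17, against 0.12. The members had the higher median in oligodendrocyte-like nuclei, at 0.36 against 0.33 and 0.34, and in precursor-like nuclei, at 0.35 against 0.25 and 0.09. Among astrocyte-like nuclei the members' 0.14 lay between 0.13 of the secretory and 0.21 of the cytosolic list. Of 7 nuclear-retained RNAs, 0 were past 1.5-fold in glutamatergic-like nuclei, with a median of 0.04. In microglia-like nuclei *Snhg11* had 0.44, *Meg3* 0.35, *Miat* 0.27, *Kcnq1ot1* 0.17, *Malat1* 0.08 and *Neat1* -0.11. *Itm2b* (0.71) lay between *Calr*, the highest of the secretory list (0.81), and that list's median in glutamatergic-like nuclei. The part of cytoplasmic RNA carried along with the nuclei in these ratios was not tested.

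**Figure D5:**
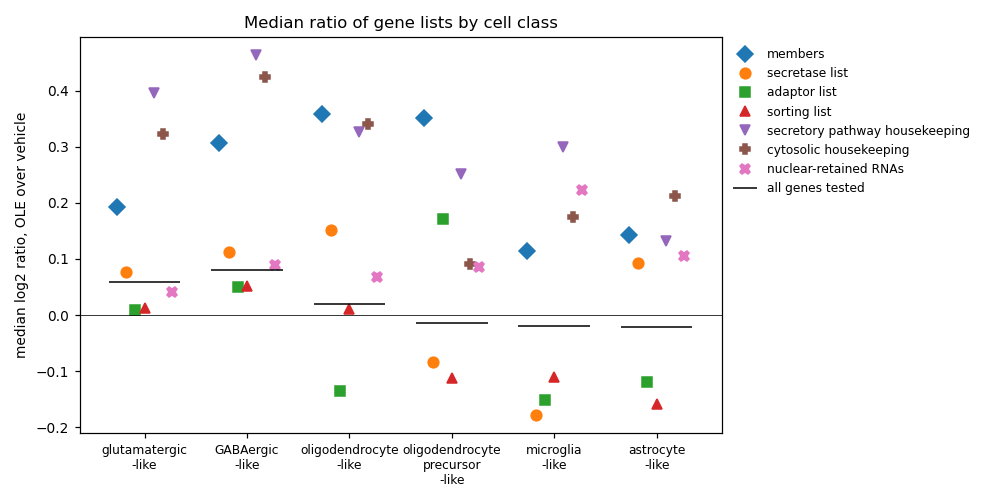
Median log2 ratio of OLE over vehicle (vertical axis) of 7 gene lists in each cell class, over the genes with at least 100 UMIs; black bars are the median of all such genes. In glutamatergic-like and GABAergic-like nuclei the secretory pathway and cytosolic housekeeping lists lie above the members.

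Last, the genes with the pattern most like each member were sought over the 12 points given by 6 classes in 2 libraries, among 7470 genes. These points share libraries and depth, so the correlations are descriptions. For *App* they were *Kcna1* (Pearson r = 0.99), *Shtn1* (0.99) and *Adam19* (0.97), and for *Aplp1* *Ndrg1*, *Sbf1* and *Atg4c* (0.97 to 0.96). *Aplp2* came with *Tmem126a* (0.94), *Clcn3* and *Hspa8*, *Adam10* with *Picalm* (0.99), *Stard3* and *Dennd6a*, and *Bace1* with *Nrbp2* (0.94), *Thra* and *Fez1*. *Psen2* was followed by *Narf* (0.91), *Setd1b* and *Utp11*, *Ncstn* by *Zfp141* and *Map1s*, and *Aph1a* by *Sap130* (0.96), *B230219D22Rik* and *Phf20*. *Itm2b* was most like the ribosomal protein genes *Rpl26*, *Rpl18* and *Rpl28* (0.98 each), which have short, abundant messages.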

How the data were processed

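Single-nuclei libraries of entorhinal cortex were made from frozen tissue with 10X 3′ v3 chemistry. Per the labels and the methods, the authors used Cell Ranger 3.0.1 (the matrix headers name 3.0.2), aligned reads to the mm10 pre-mRNA reference and later used Seurat 4.0.4. The authors deposited UMI counts per gene and nucleus, without normalization. Doublets were said to be removed by the authors, and whether this was before deposit is not given in the sources used here.

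Groups were taken from the treatment labels. Doublets were scored with Scrublet (scanpy 1.11.5, expected rate 5%). It called 7 and 8 nuclei by its own threshold, under 0.5%, so the top 5% of scores were left out. Counts were normalized with SCTransform (sctransform 0.4.2, Seurat 5.3.0, R 4.3.3; 3000 variable genes) and clustered by the Louvain method on 30 components at resolution 0.4 without integration. A cluster was named where at least 3 markers of a class were present (at least 25% of the highest cluster's level, found in at least 10% of nuclei), unless its 10 leading genes or raised markers pointed to another class or its UMIs were low. The rule was settled with the clusters in view, as the second of 2 versions. The rebuilt names may differ from those of the study.

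UMIs were summed per class and library. Levels have exact Poisson and ratios exact binomial (Clopper-Pearson) 95% intervals. A difference of 1.5-fold was called where a gene had 100 or more UMIs in the sum of the libraries. Ratio intervals were tested on simulated data. All 9 members were named in every class; of the other lists, the highest and lowest ratios in glutamatergic-like and microglia-like nuclei; and for each member the 3 genes with the highest Pearson correlation of log2(level + 1), among genes with a mean of at least 20 UMIs per 1000000. Some genes that these rules select are not reported here. Genes of these lists named in other classes and *Calr* were chosen after their values were seen. Members and lists were chosen with earlier results of these data known. Gene positions are from GENCODE vM21 (GRCm38), to which 99.9% of gene identifiers matched. Alternatives to clustering, doublets, scaling, depth, thresholds and RNA from neurons were tried.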

Additional observations from a re-analysis of the deposited data

Results flagged for a closer look

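*App* had opposite signs in different nuclei of the same pair of libraries. Its log2 ratio of OLE over vehicle was 0.24 in glutamatergic-like, 0.18 in GABAergic-like and 0.19 in oligodendrocyte-like nuclei. It was -0.10 in the low-UMI clusters 0 and 1 taken as 1 set and -0.48 in homeostatic-like microglia. No counting interval of these values included 0, but in cluster 1 alone the ratio was -0.06 (-0.16 to 0.03). The whole microglia-like class (-0.18) and its disease-associated-like nuclei had intervals that included 0. The difference between the ratios of *App* was not tested, since each rests on 1 library per group.

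At the finer cluster resolution of 0.8, a cluster of 38 nuclei held all 5 markers of dentate granule neurons, a hippocampal type. All 38 were in the OLE library and 0 in the vehicle library, and all fell in the unnamed cluster 10, outside the classes compared. Markers of choroid plexus and blood vessels differed between the libraries too. Over all retained nuclei the 5 choroid plexus markers summed to 29.8 UMIs per 1000000 in vehicle, where *Ttr* was the most abundant, and 7.18 in OLE, where it was *Kcnj13*. The 7 mural markers, led by *Vtn*, summed to 28.0 and 44.8, and the 8 endothelial markers, led by *Flt1*, to 46.0 and 63.7. The part of unequal dissection in the other differences between the libraries was not tested.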

How the results depend on the processing

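Of 386 values of the 42 ratios under alternative settings, 369 stayed within the counting interval of the value reported, 17 lay outside it and 0 of the called ratios changed sign. Part of the 369 could not have moved. Subtraction of a profile from glia leaves the ratios of the neurons as they were. Counting unnamed clusters as glutamatergic-like leaves the ratios of the other classes as they were. The number of pairs past 1.5-fold higher in OLE was 6. It became 10 with a minimum of 20 UMIs and 16 when levels 25% above vehicle were called, and lay between 5 and 7 under the other alternatives. The number past it lower was 0. It became 1 with the profile of glutamatergic-like nuclei subtracted from glia (*App* in astrocyte-like nuclei) and 1 at that smaller fold (*Adam10* in precursor-like nuclei). The members with the same highest class in both libraries numbered 6, and 6 to 8 under the alternatives. *Itm2b* ranged over the alternatives that gave a value from 0.65 to 0.97 in glutamatergic-like, 0.80 to 1.27 in GABAergic-like, 0.64 to 1.03 in oligodendrocyte-like, 1.01 to 1.31 in precursor-like and 0.53 to 0.79 in microglia-like nuclei, the lowest of these being under the called size of 0.585. Thinned to 1000 UMIs per nucleus, 17 pairs remained countable, of which 8 lay outside the interval, more than under any other setting, each of which moved 0 to 2. With thinning *Itm2b* was 1.27 in GABAergic-like nuclei and 0.97 in the glutamatergic-like class, *Aplp2* 0.54 in glutamatergic-like and 0.57 in oligodendrocyte-like, *Aplp1* 0.36 in oligodendrocyte-like, *App* 0.20 in glutamatergic-like and 0.11 in GABAergic-like, and *Adam10* 0.61 in microglia-like nuclei. The libraries had median UMIs per nucleus of 3989 in vehicle and 6392 in OLE, and the cause of these moves was not tested. The subtraction of the low-UMI profile and the counting of the unnamed neuronal clusters as glutamatergic-like were chosen after seeing the data. No paired analysis was possible because each group had 1 library and the labels number no replicates. No library could be left out for the same reason. Depth limited *Psen2*, *Ncstn*, *Aph1a* and *Bace1* in glia, where 12 of the 54 pairs fell under 100 UMIs.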
